A study of Mus musculus with 14 samples.

Results

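Endothelial cells are recognised by more than their transcription factors and junctions. The genes described here encode surface, lumen and signalling proteins of endothelium outside the ETS, SoxF, VEGF receptor, Tie and junction families, and were listed by that description of function. The list holds 32 genes. Of these, 31 were measured, each by 1 probe set that the platform annotation pairs with a single gene symbol, among 19938 genes so named in all. Selp, which encodes P-selectin, was not matched to such a probe set and was not analysed here.

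Mouse embryonic stem (ES) cells were allowed to differentiate as embryoid bodies, floating clumps of cells in which precursors of blood and vessels arise from mesoderm. Doxycycline switches on ER71/Etv2, an ETS factor, together with GATA2 and Scl (the product of Tal1). Scl is named in the titles and genotype labels, whereas the series' design text counts 3 factors and lists ER71/Etv2 and GATA2. The drug (1 µg/ml) was added on day 2, and 14 Affymetrix arrays cover 6 groups. Treated cells were taken at 6 h on day 2.25 with 1 array, at 12 h on day 2.5 with 3, and at 24 h on day 3 with 3, and every time point has the same number of arrays from untreated cells. The controls are labelled wild-type, yet their source is the same line without doxycycline, so control and induced cells share the transgenes. Replicates 1 and 2 come from the line iEGS and replicate 3 from a line labelled iB1, which the labels do not describe further. The series' text speaks of independent experiments, and the ES cells had been kept on PMEF feeder cells. No group received the drug in the absence of the factors among the arrays analysed here, so a response to doxycycline itself, if there was one, cannot be told apart from that to the factors.

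The proteins act at successive layers of a blood vessel. Endoglin (Eng) is a co-receptor for BMP9 and TGF-beta ligands, Cd34 and endomucin (Emcn) are sialomucins of the lumen face, and Rasip1 and Arhgef15 act on the small GTPases that open the lumen and shape endothelial cells. Other members serve mature vessels: von Willebrand factor (Vwf), thrombomodulin (Thbd) and the protein C receptor (Procr) govern clotting, Nos3 makes nitric oxide, and the stabilins and Lyve1 mark sinusoidal and lymphatic endothelium. Several are also made by blood cells or their precursors, among them Cd34, Procr, Vwf and Gimap6.

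All values are log2 signals made by the authors with RMA, and 1 unit is a 2-fold difference. Changes are given with the standard error (SE) of a limma fit over the 12 arrays of days 2.5 and 3, in 4 groups of 3, and a gene was called where its p, adjusted over all 19938 genes by the method of Benjamini and Hochberg, was under 0.05. In whole embryoid bodies, more cells of a type and more RNA per cell cannot be told apart. RMA draws low signals towards a floor, and 16 of the 31 genes had a mean over the 14 arrays below 4.95, the 40th percentile of all genes, and are called dim here. Replicate 3 of the induced 24 h group stood apart from the other arrays, with a mean correlation of 0.966 with them. The next lowest array, replicate 1 of the same group, had 0.976.

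The embryoid bodies carried endothelial markers at different levels. Of 6 defining genes (Cdh5, Pecam1, Tek, Tie1, Kdr and Esam), 4 were called higher than control at 12 h and 4 at 24 h, against 0.813% and 2.03% of all genes. Cdh5, Tek and Esam were called at both times, Kdr at 12 h alone and Tie1 at 24 h alone. Kdr had control means of 5.06 on day 2.5 and 7.09 on day 3, and induced means of 7.02 and 7.71. Cdh5, which encodes VE-cadherin, lay at 5.42 to 5.76 in the day 3 controls and at 8.43 to 9.50 after 24 h. Pecam1 lay at 5.10 to 5.76 and 5.75 to 6.86 and was not called (log2 change 0.81 ± 0.346 SE, limma adjusted p = 0.259).

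Of the 31 genes, 11 rose after 24 h, against 2.03% of all 19938 genes called higher and 3.43% called lower, and 0 fell. After 12 h 5 of the 11 had risen and 0 had fallen, against 0.813% and 0.577% of all genes. Egfl7, Rasip1, Arhgef15, Eng and Procr rose at both times. S1pr1, Ecscr, Adgrf5, Cd34, Nos3 and Vwf passed the test at 24 h alone. The largest change was that of Egfl7, 6.19-fold at 24 h. The other 20 genes, which include thrombomodulin, both stabilins, Lyve1, Emcn, Robo4, Clec14a and Cd93, all of these dim, were not called at 24 h. Of the 20, 15 were dim. At 24 h 1 of the 16 dim genes was called, against 10 of the 15 that were not dim. Dimness was set on a mean that includes the induced arrays, so a gene that rose could lift itself over the cut of 4.95. S1pr1, Vwf and Procr had day 3 control means of 4.66, 4.78 and 4.71, below the cut, yet counted as not dim. The rest of the 10 had day 3 control means above it. The contrast is thus not independent of the rise, and whether low signal hid changes was not tested.

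The median change of the list was 0.16 at 12 h and 0.43 at 24 h, against -0.01 and 0.00 over all genes. At 12 h 9 of the 31 had all induced arrays above all controls and 1 had them all below (6.78% and 7.72% of all genes), and at 24 h 14 and 0 did (7.60% and 10.9%). The mean log2 signal over the 31 genes lay at 4.69 to 4.93 in the day 2.5 controls and 5.05 to 5.09 after 12 h. On day 3 it lay at 4.69 to 4.87 in the controls and 5.37 to 5.41 after 24 h, so that controls and induced arrays stood apart on both days.

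The promoters of genes that rose at both times are shown first. Short motifs known for the families of the induced proteins were searched for in them. The windows are the 250 bases before the RefSeq start in GRCm38.p6, written in the direction of transcription. Capitals mark matches, on either strand, to CNGGAAG (an ETS motif) and CATCTG (an E-box of the kind bound by Scl). They also mark the GATA motif AGATAA, its variant TGATAA, and the composite forkhead and ETS core AACAGGAA. The shorter ETS core GGAA is not marked where it stands outside these motifs. Arhgef15 has no entry in the promoter table.

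Egfl7, upstream start, chr2:26580833-26581082, plus strand: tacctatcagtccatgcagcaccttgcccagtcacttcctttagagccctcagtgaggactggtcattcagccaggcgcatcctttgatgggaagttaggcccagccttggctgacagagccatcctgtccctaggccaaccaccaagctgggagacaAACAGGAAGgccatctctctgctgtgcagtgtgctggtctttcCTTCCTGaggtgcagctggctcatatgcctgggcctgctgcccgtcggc
Egfl7, middle start, chr2:26583615-26583864, plus strand: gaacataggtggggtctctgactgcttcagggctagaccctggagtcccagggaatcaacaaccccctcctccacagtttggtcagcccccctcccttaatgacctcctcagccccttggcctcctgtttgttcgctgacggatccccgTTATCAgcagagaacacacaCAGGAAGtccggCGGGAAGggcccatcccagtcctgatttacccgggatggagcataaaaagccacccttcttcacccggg
Rasip1, chr7:45627287-45627536, plus strand: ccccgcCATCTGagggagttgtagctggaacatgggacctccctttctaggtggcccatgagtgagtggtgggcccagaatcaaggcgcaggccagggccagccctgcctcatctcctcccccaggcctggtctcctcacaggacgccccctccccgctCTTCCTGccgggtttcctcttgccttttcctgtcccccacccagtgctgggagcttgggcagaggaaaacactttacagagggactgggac
Eng, chr2:32646345-32646594, plus strand: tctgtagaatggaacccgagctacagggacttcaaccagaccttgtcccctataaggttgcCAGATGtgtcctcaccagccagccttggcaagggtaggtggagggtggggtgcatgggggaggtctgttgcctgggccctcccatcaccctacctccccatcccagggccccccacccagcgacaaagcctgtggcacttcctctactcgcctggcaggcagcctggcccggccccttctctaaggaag

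The upstream Egfl7 window holds ETS letters at 2 places, one of which overlaps the composite motif AACAGGAA so that the same bases count for both. The middle Egfl7 window also holds ETS letters at 2 places, beside 1 TGATAA match. The Rasip1 window has 1 ETS match and 1 E-box match, and the Eng window has 1 E-box match. The third Egfl7 window and the Procr window hold none of these letters. Over the list, 20 of the 31 measured genes had 24 windows in the table, and 58.3% of these windows held CNGGAAG, against 26.6% of all 32851 windows of that length. The share was 55.6% in 9 windows of genes that rose at 24 h and 60.0% in 15 windows of genes that were not called, so the letters were found in genes of both kinds. The 9 windows belong to 6 of the 11 genes that rose, with 3 from Egfl7 and 2 from Adgrf5. The 15 belong to 14 genes. Windows of 1 gene are not separate cases. AACAGGAA was found in 16.7% of the list's windows and 2.25% of all windows, and again in both kinds (11.1% and 20.0%). The E-box (16.7% against 14.4%), the first GATA motif (8.33% against 9.99%) and its variant (12.5% against 7.94%) had shares nearer to those of all windows. These are counts of letters in short windows, given without a test, and say nothing of binding.

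Among the 4 secreted and matrix proteins, Egfl7 and Vwf rose and Mmrn1 and Mmrn2 did not pass the test. Egfl7 encodes a matrix protein secreted by endothelium that is needed for tube formation. Its control arrays lay at 6.60, 6.56 and 6.64 on day 2.5 (replicates 1 to 3) and at 6.54, 6.39 and 6.11 on day 3. The induced arrays lay at 7.91, 7.73 and 7.74 after 12 h and at 9.07, 9.07 and 8.79 after 24 h. Each induced array was above every control array of its day, and the 24 h arrays were above all 12 h arrays. At 12 h the change was 1.19 ± 0.144 (limma adjusted p = 0.000307). By 24 h it was 2.63 ± 0.144 (limma adjusted p = 6.58e-08). After 6 h Egfl7 stood at 6.94 against 6.69 in the control.

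An intron of Egfl7 holds the gene of miR-126, an endothelial microRNA. It is shown because its host had the largest change. Capitals mark the seed, bases 2 to 8, and coordinates are those of GRCm38.p6.

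mmu-miR-126a-3p, chr2:26591402-26591423, plus strand: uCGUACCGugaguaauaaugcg

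The probe set annotated to this microRNA gene, Mir126a, lay at 1.98 to 2.20 in the day 3 controls and at 2.10 to 2.54 after 24 h. Its log2 change was 0.18 ± 0.159 (limma adjusted p = 0.642), and it was chosen for mention after its host's values were seen. RMA can understate changes at low signals.

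Vwf, the clotting protein stored in endothelial and platelet granules, lay at 4.68 to 4.85 in the day 3 controls and at 5.20 to 5.40 after 24 h. The groups did not overlap, and the change of 0.54 ± 0.132 passed the test (limma adjusted p = 0.0254). This call was the least firm of the 11. It was lost without replicate 3 of the induced 24 h group (0.50 ± 0.141, limma adjusted p = 0.0657), with the day 3 groups fitted alone (limma adjusted p = 0.116) and without any 1 of the 3 replicate numbers (0.0652 to 0.319). Mmrn2, a matrix protein of the endothelial surface that binds Cd93 and Clec14a, was higher in each of the 3 same-number pairs at 24 h, by 0.28 to 0.48, but was not called (0.41 ± 0.186, limma adjusted p = 0.295). Mmrn1, a multimerin of platelets and endothelium, was at 0.10 ± 0.172.

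**Figure D1:**
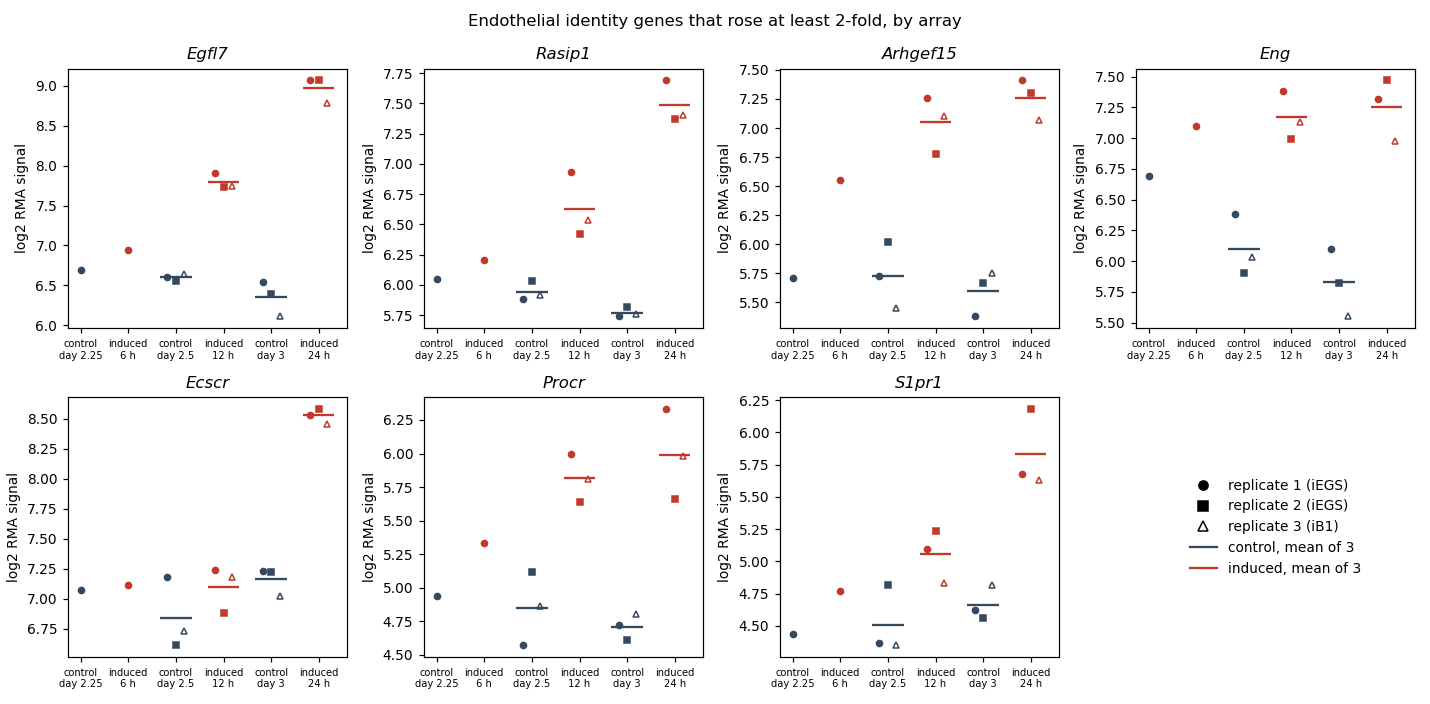
Log2 RMA signal of the 7 genes that rose at least 2-fold at 12 h or 24 h, 1 panel per gene; points are single arrays (circles and squares, replicates 1 and 2 of line iEGS; open triangles, replicate 3 of line iB1), lines are means of 3 arrays, blue-grey is control and red is induced, and each vertical axis has its own range. In each panel the 3 induced arrays of 24 h lie above the 3 control arrays of day 3, and for Egfl7 the induced arrays go from 7.73 to 7.91 at 12 h to 8.79 to 9.07 at 24 h.

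Of the 6 cytoplasmic and membrane signalling genes, Rasip1 and Arhgef15 rose at both times. Rasip1 encodes a Ras-interacting protein needed to form the vessel lumen. Its control arrays lay at 5.88, 6.03 and 5.92 on day 2.5 and at 5.74, 5.82 and 5.76 on day 3. The induced arrays reached 6.93, 6.42 and 6.54 after 12 h and 7.69, 7.37 and 7.40 after 24 h. Neither pair of groups overlapped, with changes of 0.69 ± 0.152 (limma adjusted p = 0.0377) and 1.72 ± 0.152 (limma adjusted p = 5.63e-06).

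Arhgef15 encodes a guanine nucleotide exchange factor of endothelium. It had the largest difference of the 31 at the earliest time, 6.55 after 6 h against 5.71 in the control (1.79-fold, 1 array each). Its day 2.5 controls lay at 5.73, 6.02 and 5.45 and its 12 h arrays at 7.26, 6.78 and 7.10. The day 3 controls lay at 5.38, 5.67 and 5.75 and the 24 h arrays at 7.41, 7.30 and 7.07. The induced arrays of the 2 times overlap, and all lie above every control array. At 12 h the change was 1.31 ± 0.18 (limma adjusted p = 0.00091), and after 24 h it was 1.66 ± 0.18 (limma adjusted p = 3.56e-05).

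The remaining 4 genes of the group were not called. She, which encodes an SH2-domain adaptor, was at 0.46 ± 0.201 at 12 h and 0.43 ± 0.201 at 24 h. Its same-number differences at 24 h were 0.83, 0.48 and -0.02, the last in the line iB1 and with the induced array that stood apart. At 12 h they were 0.22, 0.48 and 0.67. Myct1, a membrane protein of endothelial and blood precursors, had arrays of 3.77 to 4.62 after 24 h against 3.57 to 3.75, without overlap (0.42 ± 0.212, limma adjusted p = 0.355). One array, replicate 1, lay well above the other induced arrays, and it is the array with the next lowest mean correlation. Gimap6 (-0.06 ± 0.19) and Apold1 (0.09 ± 0.163), an early response gene of endothelium, had overlapping groups at 24 h.

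The surface receptors and glycoproteins form the largest group, and 5 of 10 rose at 24 h, with Eng alone called at 12 h. Eng had day 2.5 controls of 6.38, 5.90 and 6.03 and 12 h arrays of 7.38, 6.99 and 7.13. On day 3 the controls were 6.10, 5.82 and 5.55 and the 24 h arrays 7.32, 7.47 and 6.98. The induced arrays of both times overlapped and stood clear of the controls. The change was 1.06 ± 0.187 (limma adjusted p = 0.00705) and 1.43 ± 0.187 (limma adjusted p = 0.000207).

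Ecscr, a surface protein of endothelial migration, was called at 24 h and not at 12 h. Its 12 h arrays (7.24, 6.88 and 7.18) overlapped the day 2.5 controls (7.18, 6.61 and 6.73), with a change of 0.26 ± 0.162 (limma adjusted p = 0.999). Its 24 h arrays lay at 8.53, 8.58 and 8.46, above the day 3 controls at 7.23, 7.22 and 7.02. The spread of the 24 h arrays (SD 0.059) was small beside the change of 1.37 ± 0.162 (limma adjusted p = 8.26e-05).

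S1pr1 encodes the receptor for sphingosine-1-phosphate that steadies new vessels. Its day 3 controls lay at 4.62, 4.56 and 4.82 and its 24 h arrays at 5.68, 6.18 and 5.63, without overlap (1.17 ± 0.183, limma adjusted p = 0.00102). At 12 h its arrays (5.10, 5.24 and 4.83) were also above the controls (4.37, 4.82 and 4.35), but the lowest of them only just, and without a call (0.54 ± 0.183, limma adjusted p = 0.303).

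Cd34 lay at 5.00 to 5.18 in the day 3 controls and 5.61 to 6.32 after 24 h, a rise of 0.86 ± 0.191 (limma adjusted p = 0.0133). Its controls were at 5.25 to 5.84 on day 2.5, above those of day 3, and the 24 h arrays overlapped the 12 h arrays (5.69 to 6.02). Adgrf5, an adhesion G protein-coupled receptor, lay at 3.73 to 3.88 and 4.48 to 4.85, a rise of 0.87 ± 0.168 (limma adjusted p = 0.0054). Both calls were lost without replicate 2 (limma adjusted p = 0.278 and 0.0776) and without replicate 3 (0.143 and 0.0827).

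The 5 other receptors were dim and had overlapping groups at 24 h. Robo4, a guidance receptor of endothelium, was at -0.02 ± 0.174. Clec14a and Cd93, lectin-like receptors of one family, were at 0.06 ± 0.251 and -0.08 ± 0.196, and the latrophilin-like receptor Adgrl4 at 0.00 ± 0.153. Emcn was at 0.32 ± 0.224. Its same-number differences were 1.19, -0.24 and 0.01, so replicate 1 alone stood apart, with a control at 2.85 and an induced array at 4.04. That induced array is the one with the next lowest mean correlation. At 12 h the 3 Robo4 arrays (4.56 to 4.84) lay below the controls (4.85 to 5.11), without a call (-0.27 ± 0.174, limma adjusted p = 0.999). It was the only one of the 31 genes whose induced arrays all lay below the controls at 12 h, and none did so at 24 h.

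**Figure D2:**
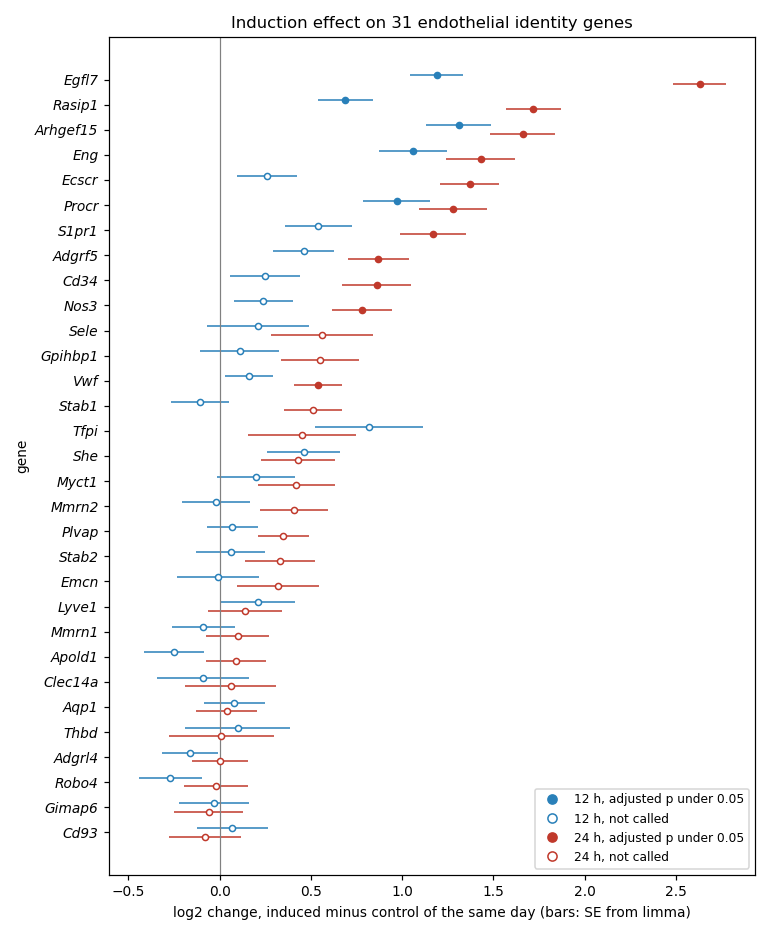
Log2 change (horizontal axis) of each of the 31 genes at 12 h (blue) and 24 h (red), ordered by the change at 24 h; bars are SE from limma with 3 arrays per group, filled points passed at an adjusted p under 0.05. The changes run from -0.08 for Cd93 to 2.63 for Egfl7 at 24 h, with 11 filled points there and 5 at 12 h.

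Among the 3 anticoagulant genes Procr rose at both times. It encodes the endothelial protein C receptor, which also marks blood stem cells. Controls lay at 4.57, 5.12 and 4.86 on day 2.5 and 4.72, 4.61 and 4.80 on day 3. Induced arrays lay at 6.00, 5.64 and 5.81 after 12 h and 6.33, 5.66 and 5.98 after 24 h. The groups did not overlap at either time, and replicate 2 had the smallest difference at both (0.53 and 1.06). The change was 0.97 ± 0.185 (limma adjusted p = 0.0134) and 1.28 ± 0.185 (limma adjusted p = 0.000476).

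Tfpi, the inhibitor of tissue factor, was above its controls on all 3 arrays at 12 h (6.85 to 7.18 against 5.89 to 6.49) and was not called (0.82 ± 0.295, limma adjusted p = 0.381). At 24 h its same-number differences were 0.87, 0.77 and -0.30, and replicate 3, of the line iB1, was the one below its control. That induced array is the one that stood apart from the others. At 12 h the Tfpi differences were 0.69, 1.16 and 0.60. Thbd had overlapping groups at both times, with a change of 0.01 ± 0.287 at 24 h. Its SE was among the widest of the list, and its day 2.5 controls alone ran from 3.33 to 4.72.

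Nos3 was the 1 of 4 genes of exchange, transport and nitric oxide that rose at 24 h, from 4.69 to 5.17 in the controls to 5.64 to 5.81 (0.78 ± 0.163, limma adjusted p = 0.00912). It was not called without replicate 2 or replicate 3 (limma adjusted p = 0.206 and 0.135). Gpihbp1, which anchors lipoprotein lipase to capillaries, had 24 h arrays of 5.13 to 5.84 just above the controls at 4.92 to 5.12 (0.55 ± 0.216, limma adjusted p = 0.206). Plvap, a protein of the diaphragms of endothelial pores, was at 0.35 ± 0.14 (limma adjusted p = 0.219), with arrays of 6.03 to 6.37 against 5.77 to 6.03. Aqp1, a water channel, was at 0.04 ± 0.167.

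The genes of sinusoidal and lymphatic endothelium were not called. Stab1, a scavenger receptor also made by macrophages, had 24 h arrays of 5.09 to 5.35 above controls of 4.55 to 4.89 (0.51 ± 0.159, limma adjusted p = 0.0937). At 12 h it was at -0.11 ± 0.159. Stab2 was at 0.33 ± 0.191 and Lyve1, a hyaluronan receptor, at 0.14 ± 0.203 at 24 h. Sele, the adhesion molecule of inflamed endothelium, lay at 4.81 to 6.05 after 24 h and 4.55 to 5.19 in the controls (0.56 ± 0.278, limma adjusted p = 0.35). When replicate numbers were blocked it passed (0.56 ± 0.154, limma adjusted p = 0.038), and its highest array was replicate 3 of the induced 24 h group, the one that stood apart.

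Each of the 5 genes called at 12 h lost its call without at least 1 of the 3 replicate numbers. Without replicate 1, 3 of the 5 genes were still called, with Rasip1 and Procr lost (limma adjusted p = 0.276 and 0.087). Without replicate 2 only Arhgef15 was called, and without replicate 3, the only one of line iB1, only Egfl7. The lost genes then had limma adjusted p-values of 0.0587 to 0.272 and 0.0648 to 0.452, with log2 changes of 0.83 to 1.21 and 0.72 to 1.15. Calls over all genes fell too. Without replicates 1, 2 and 3 in turn, 128, 43 and 64 genes were called higher at 12 h, against 162 with all arrays. Rasip1 was also lost with the day 2.5 groups fitted alone (limma adjusted p = 0.0796). At 24 h 7 genes (Egfl7, Rasip1, Arhgef15, Eng, Ecscr, Procr and S1pr1) were called without any 1 of the replicate numbers.

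The time course was read in 3 ways that share arrays, so they are not independent of one another. Between the induced groups of 12 h and 24 h, 4 of the 31 genes passed as higher and 0 as lower (0.557% and 1.25% of all genes). They were Ecscr, higher by 1.42 ± 0.162, Egfl7 by 1.18 ± 0.144, Rasip1 by 0.86 ± 0.152 and S1pr1 by 0.77 ± 0.183 (limma adjusted p = 0.000546, 0.000626, 0.00874 and 0.0487). Eng (0.09 ± 0.187), Cd34 (0.13 ± 0.191), Procr (0.17 ± 0.185) and Arhgef15 (0.21 ± 0.18) were not called. Without replicate 2 none of the 4 was called (limma adjusted p = 0.0791 to 0.316), and without replicate 1 S1pr1 was not (0.0663). S1pr1 and Rasip1 were lost with these groups fitted alone (0.165 and 0.1) and without replicate 3 (0.363 and 0.236).

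Between the control days 0 of the 31 genes passed, in limma, with 1 at an unadjusted p under 0.05, where 0.562% of all genes were called higher and 0.196% lower. The largest difference was a lower Cd34 on day 3 (-0.49 ± 0.191, limma adjusted p = 0.534).

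The change of the induction effect from 12 h to 24 h, each against its own control, passed the test for Egfl7 alone (0.100% of all genes were called higher and 0.326% lower), by 1.44 ± 0.203 (limma adjusted p = 0.00554). Ecscr (1.11 ± 0.23) and Rasip1 (1.03 ± 0.215) were just short of it (limma adjusted p = 0.0584 and 0.0587). When replicate numbers were blocked both passed (limma adjusted p = 0.0168 and 0.0265). The Egfl7 call was lost without replicate 2 (limma adjusted p = 0.428) and without replicate 3 (limma adjusted p = 0.174), with changes of 1.40 and 1.37. For Arhgef15 (0.34 ± 0.254), Eng (0.36 ± 0.265) and Procr (0.31 ± 0.261) the change of the effect was not called, which does not show that their effects were equal. The value for Tfpi was -0.37 ± 0.417.

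**Figure D3:**
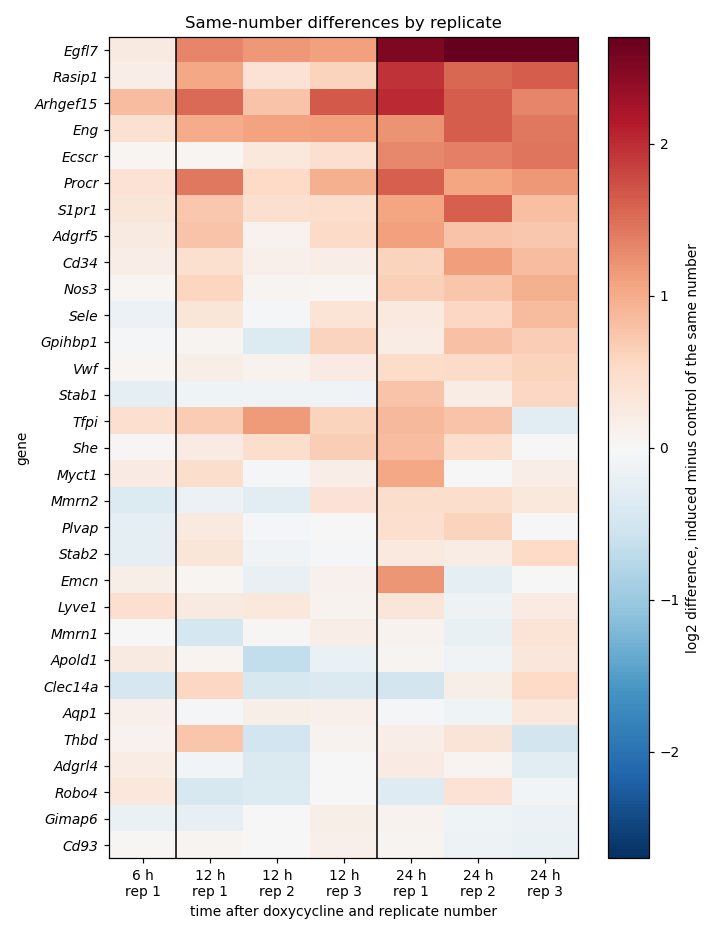
Log2 difference between induced and control arrays that share a day and a replicate number, by colour (red, higher in induced; blue, lower), for the 31 genes (rows, ordered by the change at 24 h) at 6 h (1 pair), 12 h and 24 h (3 pairs each). Egfl7 lies at 0.25 at 6 h, 1.10 to 1.31 at 12 h and 2.53 to 2.68 at 24 h, and Tfpi is below its control in replicate 3 at 24 h only.

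After 6 h, with 1 array per group and no test, 0 of the 31 genes differed at least 2-fold, against 0.221% of all genes higher and 0.135% lower by that much. At 1.5-fold, 1 gene (Arhgef15) was higher and 0 were lower, against 1.40% and 1.29% of all genes. The differences ran from -0.46 for Clec14a to 0.84 for Arhgef15. Tfpi (0.46), Lyve1 (0.46), Eng (0.41) and Procr (0.39) followed, of which Tfpi and Lyve1 were not called at the later times.

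The endothelial genes of the families outside this list were counted in the same fits. Of 30 such genes, 11 rose and 0 fell at 12 h and 16 rose and 0 fell at 24 h, with median changes of 0.56 and 1.09. At 6 h 5 of them were at least 2-fold higher. Those counts and medians are above the 5 and 11 of 31 and the medians of 0.16 and 0.43 found here, a difference for which no test was made.

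Markers of other cell types are given because some of the 31 genes are not made by endothelium alone. Of 11 general blood genes, 3 were called higher than control at 12 h and 5 at 24 h (Spi1, Runx1, Gata1, Laptm5 and Myb). The mean log2 signal of the 11 was 4.53 to 4.64 in the day 3 controls and 5.19 to 5.36 after 24 h. Myb had induced means of 7.86 at 12 h and 7.89 at 24 h. Its control mean was 7.69 on day 2.5 and 6.67 on day 3, and it was called lower between the control days. Of 7 megakaryocyte genes measured, 0 rose at 12 h and 2 at 24 h, Pf4 (1.07 ± 0.13, limma adjusted p = 0.000107) and Nfe2 (1.53 ± 0.216, limma adjusted p = 0.000399), with list means of 3.95 to 4.26 and 4.72 to 4.80. Itga2b, which encodes the platelet integrin CD41, and the pan-leukocyte gene Ptprc were not called. The 5 blood and 2 megakaryocyte genes passed at 24 h, as Vwf and Cd34 did, and their part in those changes was not tested. Of 9 macrophage genes 0 passed at either time (4.19 to 4.30 and 4.12 to 4.65). Of 11 feeder fibroblast genes 1 rose (Thy1) and 1 fell (Tagln) at 24 h, with overlapping means (5.82 to 5.95 and 5.82 to 6.08). Of 9 visceral endoderm genes 0 rose and 1, Foxa2, fell at both times.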

How the data were processed

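Total RNA was amplified, labelled and hybridised to Affymetrix arrays, as the labels' protocols state. The authors made the deposited log2 signals with RMA in Affymetrix Expression Console, as known from the submitters' processing notes. For software versions, the genome build and the set of arrays normalized jointly, the sources used here give nothing. Arrays carry no counts, so their number limits the precision. Of 35556 probe sets, 21789 had 1 symbol in the platform annotation, 1621 several and 12146 were not listed; symbols were checked by gene identifier against the RefSeq table of GRCm38.p6, which changed 0 of them. For 999 genes with several probe sets, that of the highest mean stood for the gene.

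One limma model (version 3.58.1, R 4.3.3, functions lmFit and eBayes) covered the 4 groups of 3 arrays (8 residual and 6.05 prior degrees of freedom), with no filter on low values, and the script was tested on simulated data. How the arrays fall into the 3 experiments that the design text calls independent is not stated, so p-values measure the spread between these samples, which may be partly technical. Same-number arrays of a day deviated together (correlations 0.573, 0.344 and 0.262 at 12 h, 0.517, 0.157 and 0.261 at 24 h), each over 0.1. Pairs of unlike number had -0.415 to 0.167 at 12 h and -0.535 to 0.375 at 24 h, so the 2 kinds overlapped at 24 h. The fit reported has no block for the replicate number, and the blocked value is printed where it changed a call. All 31 genes are reported, with every array's value for those called and changed at least 2-fold. The members and lists were chosen with earlier results of these data known. Promoter and microRNA sequences are from RefSeq, GRCm38.p6. Alternatives were the replicate block, the compared groups alone, median centring, quantile normalization again, no dim genes, the mean of a gene's probe sets, array weights, and leaving out replicates.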

Additional observations from a re-analysis of the deposited data

Results flagged for a closer look

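The induction effect on Egfl7, the matrix protein gene with the largest change, was larger at 24 h than at 12 h, by 1.44 on the log2 scale, as tested by the difference of the 2 effects in limma (SE 0.203, adjusted p = 0.00554). All 3 same-number pairs had a larger difference at 24 h (2.53 to 2.68) than at 12 h (1.10 to 1.31).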

How the results depend on the processing

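Of 975 values of single genes recomputed under the alternatives (12 h, 24 h and the change of effect), 0 reversed among called values, 24 lost and 14 gained a call, and 937 kept their side of the threshold. The replicate block, the compared groups alone, no dim genes and the mean of probe sets leave these log2 changes as they are. A reversal was not possible in those fits. Leaving out replicate 3 of the induced 24 h group likewise cannot alter a log2 change at 12 h. The count of genes called at 12 h (5) was 1 to 3 without 1 replicate number, that at 24 h (11) was 7 to 10, and that of the 30 other endothelial genes at 12 h (11) was 4 to 11. Over all genes, 43 to 128 were then called higher at 12 h (162 with all arrays) and 143 to 486 at 24 h (405). The count for the change of effect (1) was 3 with the replicate block, 3 with quantile normalization again, 3 without dim genes, 4 with array weights, and 0 to 1 without 1 replicate number. Over all genes tested, the calls higher were 36, 52, 22 and 122 in the first of these fits, in that order, against 20. They were 0 to 17 without 1 replicate number. Between the induced times (4) the count was 2 with these groups alone, 7 with array weights, and 0 to 4 without a replicate. Over all genes 43 were called higher with these groups alone and 652 with array weights, against 111. At 6 h the count was 1 at 1.5-fold and 0 at 2-fold. The replicate block changed no other call of these genes beyond those given and that of Stab1 between the induced times (0.59, limma adjusted p = 0.0479). Array weights, which gave replicates 1 and 3 of the induced 24 h group weights of 0.27 and 0.318, called 2 further genes at each time (S1pr1 and She, then Plvap and Gpihbp1). With these weights 438 of all genes were called higher at 12 h and 1188 at 24 h, against 162 and 405 without them. The cause of these differences was not tested. Each of the 31 genes has 1 probe set, so averaging probe sets did not touch its values. Median centring and quantile normalization moved the changes of these genes by at most 0.14. Dim signals limit what can be seen for 16 of the 31 genes.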
